A study of Mus musculus with 4 samples.

Results

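The genes described here encode the proteasome, the protease complex that degrades ubiquitin-tagged proteins, together with its assembly factors and alternative caps. They were the table rows named Psma, Psmb, Psmc, Psmd, Psme, Psmf or Psmg followed by a number, without Psmb8, Psmb9 and pseudogenes, and they came to 46 of 24497 listed features. The RNA came from spleen cells, enriched with beads for the donor marker CD45.2, of mice with acute myeloid leukaemia driven by the MLL-AF9 fusion. All mice were sub-lethally irradiated (320 rads) secondary recipients of sorted leukaemic marrow cells and were injected intraperitoneally on alternate days for 20 days. The PBS group received PBS alone (2 libraries), and the CS1 group received 5 mg/kg of CS1, which inhibits FTO, an enzyme that removes methyl groups from RNA (2 libraries). CS1 replicate 2 carries CS2 in its treatment field but CS1 in its title and description, and was kept in the CS1 group. The labels and design text give no strain and no age. Nothing says whether the replicates are different mice, so the p-values speak only of the spread between these libraries, which may be technical.

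The deposited values were taken as TPM, a length-normalised share of all transcripts, so levels of different genes can be set beside each other. They summed to 977973 to 986345 per library, and how many reads lie behind them is unknown. The leukocyte marker Ptprc, which encodes CD45, stood at 583 and 597 TPM in PBS and at 323 and 315 TPM in CS1. Of 6 markers of the leukaemic myeloid cells, all present in every library, Lyz2, Itgam and Csf1r fell and Mpo, Hoxa9 and Meis1 rose, and their sum went from 14860 and 15010 TPM in PBS to 8009 and 8047 TPM in CS1. Most of that sum was Lyz2, and the other 5 summed to 1735 and 1759 TPM in PBS and 1816 and 1825 TPM in CS1. The 5 B cell markers summed to 53.7 to 55.3 TPM in PBS and 31.7 to 34.5 TPM in CS1, the 5 T cell markers to 8.07 to 8.51 and 5.0 to 5.09 TPM, the 3 NK cell markers to 2.53 to 2.96 and 0.86 to 1.14 TPM, and the 5 stromal and endothelial markers to 47.9 to 49.6 and 41.4 to 43.4 TPM, mostly from Pecam1, which myeloid cells also express. The 6 erythroid markers summed to 19.0 and 19.5 TPM in PBS and to 29.2 and 4.89 TPM in CS1, with Hba-a1 at the lowest listed value of 0.01 in CS1 2. The NK cell marker Ncr1 was at 0.01 in both CS1 libraries. The part of these shifts in the values below was not tested. In such bulk samples, fewer cells of a type and less RNA per cell cannot be told apart.

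The proteasome has a barrel-shaped core particle, whose outer alpha rings form the gate and whose inner beta rings hold the proteolytic sites, and a regulatory particle that caps it. The base of the regulatory particle contains ATPases that unfold substrates, and its lid contains the deubiquitinase that removes ubiquitin chains. Interferon gamma exchanges the catalytic beta subunits for immune counterparts and raises the PA28 activator, which favours peptides for MHC class I. The genes were divided into 14 constitutive core genes (Psma1 to Psma7 and Psmb1 to Psmb7), 17 genes of the regulatory particle (the 6 ATPases Psmc1 to Psmc6, 3 other base genes and 8 lid genes), 7 assembly chaperones, 5 alternative regulators and the 3 tissue- or immune-specific core genes Psma8, Psmb10 and Psmb11. Psma8, a testis alpha subunit, was listed at 0.01 in every library, and Psmb11, the thymus beta subunit, at no more than 0.10 TPM. The other 44 genes reached at least 1 TPM in at least 2 libraries and were tested.

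Differences between CS1 and PBS were small for most proteasome genes. Log2 fold changes of CS1 over PBS, on the log2(TPM + 1) scale, ran from -0.43 for Psmb10 to 0.52 for Psmd9. By limma, with p-values adjusted after Benjamini and Hochberg across the 11866 tested features and called below 0.05, 17 of the 44 genes rose, 8 fell and 19 were not called. Thus 56.8% of the proteasome genes were called, against 67.0% of all tested features. The share that rose stood beside 35.3% of all features, and the share that fell beside 31.6%. The split between directions moved with the scaling. Rescaling with trimmed-mean (TMM) factors gave 13 higher and 10 lower, and quantile normalization gave 26 higher and 6 lower. Over all features, both of these settings called more lower than higher, while the main fit called more higher than lower. Without the filter on low values, fewer of all features were called in each direction than in the main fit. In that setting 8 proteasome genes were called higher and 4 lower. In proportion this was a larger loss, in each direction, than over all features, where the added features may also have been called. The CS1 libraries lay above both PBS libraries for 24 genes and below both for 12, and the groups overlapped for 8. Over all features the groups did not overlap for 84.4%, with CS1 above for 45.1% and below for 39.3%.

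**Figure D1:**
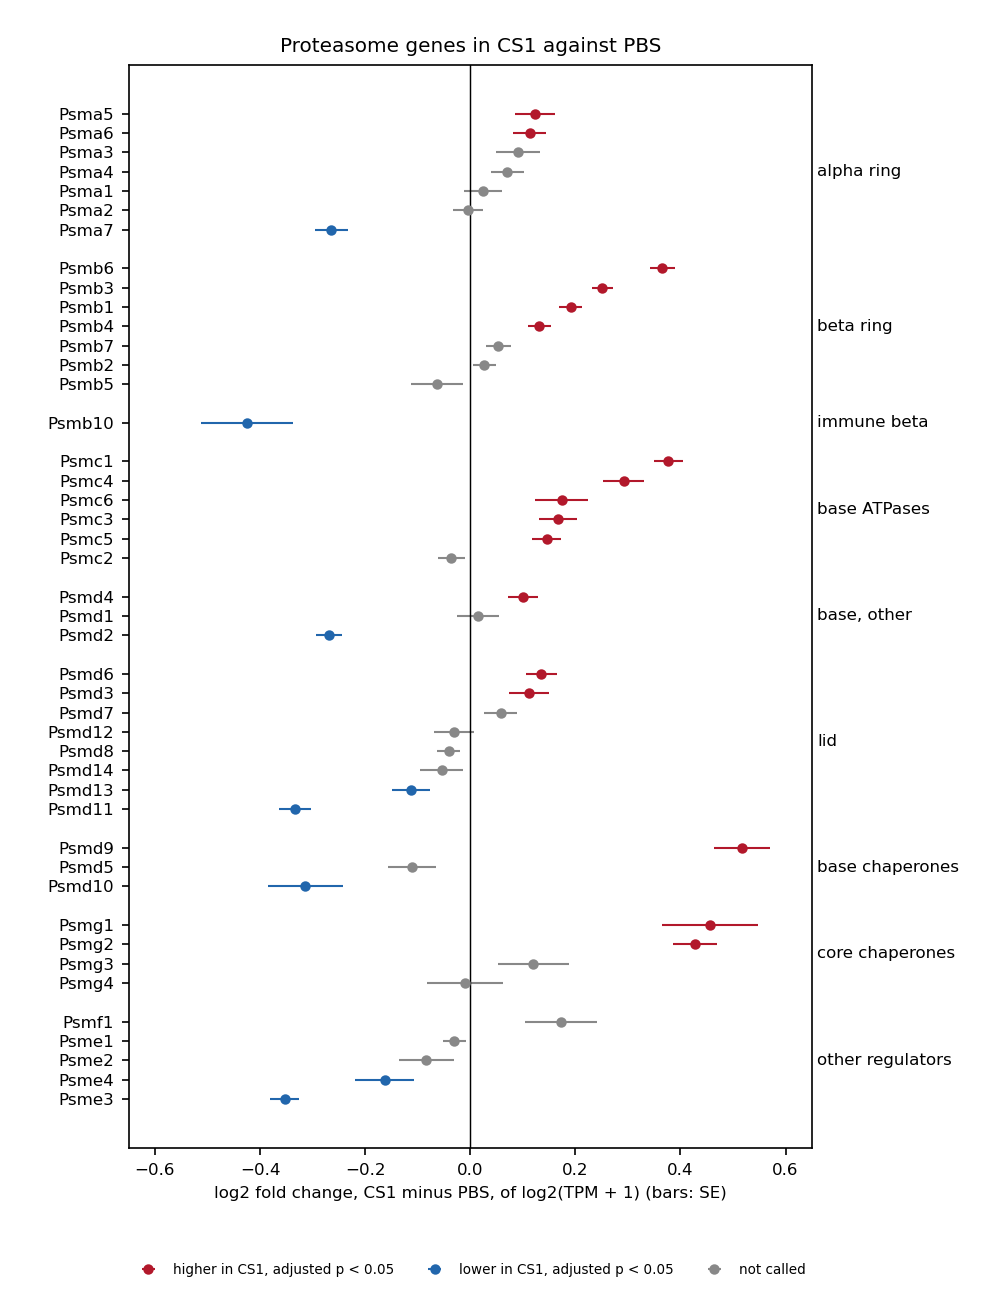
Log2 fold change of CS1 over PBS (x axis, log2(TPM + 1) scale, bars show the SE of the limma fit, 2 libraries per group) for each of the 44 tested proteasome genes, grouped by role. Most points lie close to 0; Psmd9 (0.52) is farthest to the right and Psmb10 (-0.43) farthest to the left.

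The narrow range was also visible in the sizes. The median absolute log2 fold change was 0.12 over the 44 genes and 0.31 over all tested features. Of the proteasome genes, 31 (70.5%) changed by less than 0.2, against 34.4% of all features. A change of at least 0.5 with a call was reached by Psmd9 alone, against 28.2% of all features. The median absolute log2 difference between replicates of these genes was 0.04 within PBS and 0.04 within CS1, with a largest value of 0.27 in either group.

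**Figure D2:**
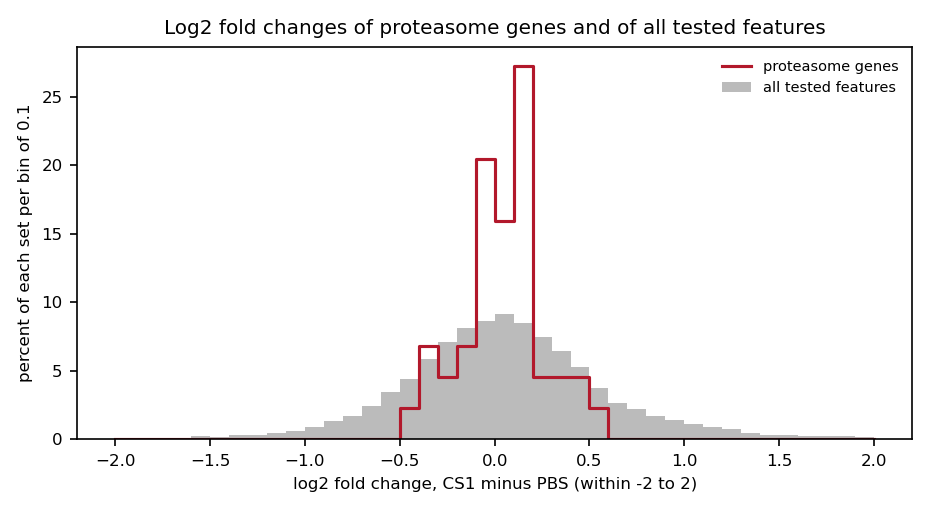
Percent of the 44 tested proteasome genes (red line) and of the 11866 tested features (grey bars) in bins of 0.1 of the log2 fold change of CS1 over PBS, shown between -2 and 2; 107 features lie beyond this range. All proteasome genes fall between -0.43 and 0.52, within the centre of the wider distribution.

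Core and regulatory particle were compared first by level. Core genes averaged 204 and 205 TPM per gene in PBS 1 and PBS 2 and 217 TPM in each CS1 library. Genes of the regulatory particle averaged 126 TPM in PBS 1, 127 TPM in PBS 2, 131 TPM in CS1 1 and 133 TPM in CS1 2. Core transcripts were thus more abundant per gene than those of the regulatory particle in every library, with ratios of 1.62 and 1.62 in PBS and 1.66 and 1.63 in CS1. Taking the median gene in place of the mean gave 1.77 and 1.74 in PBS and 1.74 and 1.72 in CS1, so the small shift of this ratio had opposite directions in the 2 summaries. Sem1, a very abundant lid subunit gene outside the naming rule, changes these means. Counting it, a choice made after seeing the data, gave 1.31 and 1.2 in PBS and 1.21 and 1.18 in CS1, where the groups overlapped. The core genes together made up 0.290% of the total in each PBS library and 0.310% in each CS1 library, and the regulatory particle 0.217% and 0.218% in PBS and 0.227% and 0.231% in CS1.

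More genes rose than fell in both particles, except that without the filter on low values 2 genes of the regulatory particle rose and 2 fell. Of the 14 core genes 6 rose, 1 fell and 7 were not called, with a median log2 fold change of 0.08. Of the 17 genes of the regulatory particle 8 rose, 3 fell and 6 were not called, with a median of 0.06, beside a median of 0.04 over all tested features. In the main fit more of all tested features rose (35.3%) than fell (31.6%) too, so this direction was not particular to the particles. After TMM rescaling and after quantile normalization more of all tested features fell than rose. The 2 medians differed by 0.02, and by 0.01 to 0.05 when each library was left out in turn. Counting Sem1 in the regulatory particle brought the difference to 0.0015. This count left out Adrm1, a base subunit gene also outside the naming rule. Sem1 (log2 fold change 0.38) lies above the particle's median of 0.06 and Adrm1 (0.03) below it, so the 0.0015 holds for Sem1 alone. After TMM rescaling the counts were 5 higher and 1 lower for the core and 5 higher and 4 lower for the regulatory particle, and after quantile normalization 12 and 1 against 10 and 2. Leaving out single libraries left 4 (without CS1 replicate 2) to 6 genes of the regulatory particle called higher, with 5 without PBS replicate 1, and a second core gene, Psmb5, was called lower without PBS replicate 1.

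The alpha ring, which gates the core particle, held 2 genes that rose, 1 that fell and 4 that were not called. Calls thus covered 42.9% of it, against 67.0% of all tested features (35.3% higher and 31.6% lower). Psma7, an alpha ring gene, was measured at 222.66 and 221.51 TPM in PBS and at 179.85 and 189.71 TPM in CS1. Both CS1 libraries lay below both PBS libraries, a fall of 0.26 on the log2 scale (SE 0.03, limma adjusted p = 0.000733). Psma7 was the only alpha gene with a negative change past the test. Psma5 stood at 110.68 and 111.14 TPM in PBS and at 116.80 and 125.15 TPM in CS1 (log2 fold change 0.12, limma adjusted p = 0.0318), and Psma6 had a log2 fold change of 0.11 (limma adjusted p = 0.0233). The call of Psma5 was lost after TMM rescaling (adjusted p = 0.0959) and without PBS replicate 1, PBS replicate 2 or CS1 replicate 2 (adjusted p = 0.121, 0.109 and 0.111) and that of Psma6 without PBS replicate 1, PBS replicate 2 or CS1 replicate 1 (adjusted p = 0.0938, 0.098 and 0.0764), so neither was called without either of the PBS libraries. Psma1, Psma2, Psma3 and Psma4 were not called, with log2 fold changes of -0.005 to 0.09. After quantile normalization all of them were called higher (adjusted p = 0.0216, 0.0189, 0.0191 and 0.00566), as were Psma3 without PBS replicate 2 and Psma4 without CS1 replicate 1 (adjusted p = 0.0312 and 0.0404).

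The beta ring held 4 genes that rose and 3 that were not called. The 57.1% that rose stood beside 35.3% of all tested features called higher and 67.0% called in either direction. Psmb6, the constitutive subunit with caspase-like activity, was measured at 138.03 and 137.63 TPM in PBS and at 177.28 and 178.40 TPM in CS1. The groups were far apart relative to the replicates, and Psmb6 had the largest rise of the core particle (log2 fold change 0.37, SE 0.02, limma adjusted p = 6.53e-05). The other catalytic subunits were not called. Psmb5, with chymotrypsin-like activity and the main target of the proteasome inhibitor bortezomib, stood at 162.63 and 179.38 TPM in PBS and at 166.16 and 160.87 TPM in CS1, where the groups overlapped (log2 fold change -0.06, limma adjusted p = 0.3). Psmb7, with trypsin-like activity, stood at 203.39 and 200.43 TPM in PBS and at 208.15 and 211.07 TPM in CS1 (0.05, limma adjusted p = 0.0885), and was called higher after quantile normalization (adjusted p = 0.00157). The ratio of Psmb6 to Psmb5 was 0.849 and 0.767 in PBS and 1.07 and 1.11 in CS1, so Psmb6 was the lower of the pair in PBS and the higher in CS1. Psmb5 is 98.9% identical over 796 bases to a pseudogene that is not listed, so the level of Psmb5 is uncertain. Without PBS replicate 1, Psmb5 was called lower (log2 fold change -0.13, adjusted p = 0.036).

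The non-catalytic beta genes Psmb1, Psmb3 and Psmb4 rose too. Psmb3, the most abundant of the 44 genes in every library, went from 302 ± 1.56 to 359 ± 0.714 TPM (SD, n = 2 each). Psmb1 went from 250.7 ± 1.87 to 286.3 ± 0.863 TPM and Psmb4 from 271 ± 3.06 to 297 ± 3.27 TPM (limma adjusted p = 0.000554 and 0.00321). Psmb2 stood at 210 ± 0.544 and 214 ± 1.82 TPM and was not called, except as higher after quantile normalization (adjusted p = 0.00173). The mean level per gene of the beta ring over that of the alpha ring was 1.17 and 1.18 in PBS and 1.29 and 1.28 in CS1. Such ratios within a library do not depend on a scaling factor per library.

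**Figure D3:**
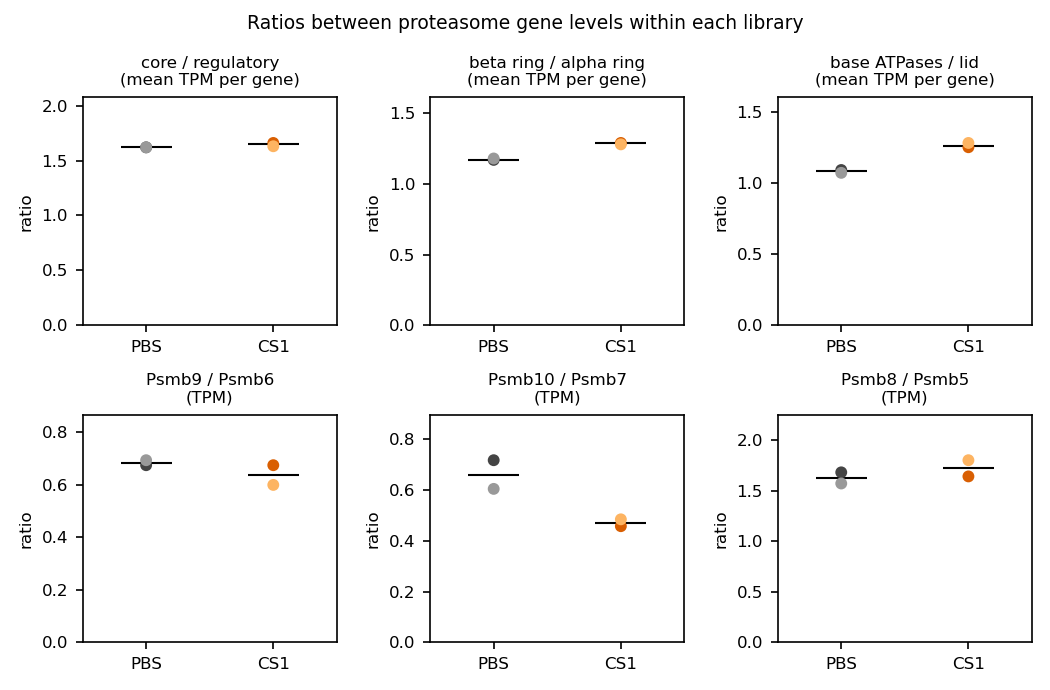
Ratios between proteasome gene levels within each library (y axis, from 0; points are libraries, 2 per group, and black lines group means). The beta to alpha ring and base ATPase to lid ratios are higher in both CS1 libraries (1.28 and 1.29, 1.25 and 1.28) than in both PBS libraries, and Psmb10 to Psmb7 is lower. The lid is taken without Sem1, with which the PBS and CS1 libraries overlap.

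Psmb10, the immune counterpart of Psmb7, fell. It was measured at 145.96 and 121.27 TPM in PBS and at 95.36 and 102.44 TPM in CS1, so both CS1 libraries were lower, while the PBS libraries differed from each other more than the CS1 libraries did. Its log2 fold change was -0.43 (SE 0.09, limma adjusted p = 0.00674), and the call was lost without CS1 replicate 1 (adjusted p = 0.065). The call of Psmb10 was also lost without the filter on low values (adjusted p = 0.155). Psmb10 over Psmb7 was 0.718 and 0.605 in PBS and 0.458 and 0.485 in CS1. The other immune subunit genes lie outside the naming rule. Psmb8, the counterpart of Psmb5, stood at 272.82 and 281.39 TPM in PBS and 271.94 and 289.97 TPM in CS1 and was not called, except as higher after quantile normalization (adjusted p = 0.0264). Psmb9, the counterpart of Psmb6, rose from 94.2 ± 1.70 to 113 ± 8.97 TPM (limma adjusted p = 0.00747), a call lost without PBS replicate 1 and without the filter on low values (adjusted p = 0.0535 and 0.142). Psmb9 over Psmb6 was 0.674 and 0.693 in PBS and 0.674 and 0.599 in CS1, and Psmb8 over Psmb5 was 1.68 and 1.57 against 1.64 and 1.80, with overlapping groups in both cases.

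The ATPases of the base, which form the ring that unfolds substrates, rose in 5 of 6 cases. That was 83.3% of them, where 35.3% of all tested features were called higher. Psmc1 was measured at 142.07 and 137.26 TPM in PBS and at 181.00 and 182.29 TPM in CS1, the largest rise of the regulatory particle (log2 fold change 0.38, SE 0.03, limma adjusted p = 0.000105). Psmc4 went from 140 ± 4.64 to 172 ± 6.85 TPM, Psmc3 from 174 ± 6.22 to 195 ± 6.39 TPM and Psmc5 from 125 ± 0.0778 to 138 ± 2.73 TPM (SD, n = 2 each). Psmc6 had a log2 fold change of 0.17 (limma adjusted p = 0.0244), and its call was lost after TMM rescaling (adjusted p = 0.0517) and without PBS replicate 2, CS1 replicate 1 or CS1 replicate 2 (adjusted p = 0.0651, 0.101 and 0.122). The call of Psmc3 was lost without PBS replicate 1 or CS1 replicate 2 (adjusted p = 0.0521 and 0.0593). Psmc2, the remaining ATPase, was not called, with 115.18 and 113.43 TPM in PBS and 111.97 and 110.98 TPM in CS1 (log2 fold change -0.04, limma adjusted p = 0.273). Without CS1 replicate 2, 3 of the 6 ATPases were called higher, and without the filter on low values 2.

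The other base genes differed in direction. Psmd2, which together with Psmd1 forms the scaffold on which ubiquitin receptors dock, stood at 135.81 and 135.82 TPM in PBS and at 112.88 and 112.27 TPM in CS1. Replicates nearly coincided, and the fall was 0.27 on the log2 scale (SE 0.02, limma adjusted p = 0.000263). Psmd1 was not called, with 77.6 ± 1.47 and 78.4 ± 3.51 TPM. Psmd4, a ubiquitin receptor, was measured at 168.83 and 173.47 TPM in PBS and at 180.41 and 186.69 TPM in CS1 (log2 fold change 0.10, limma adjusted p = 0.0247), a call lost after TMM rescaling (adjusted p = 0.0934) and without PBS replicate 1 or CS1 replicate 2 (adjusted p = 0.124 and 0.116). Psmc1 over Psmd2 was 1.05 and 1.01 in PBS and 1.60 and 1.62 in CS1.

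The lid was evenly split in the main fit, with 2 of 8 genes higher, 2 lower and 4 not called. TMM rescaling gave 1 higher and 3 lower, quantile normalization 4 higher and 1 lower, and no filter 0 higher and 1 lower. Psmd11, a scaffolding lid subunit, was measured at 82.02 and 81.97 TPM in PBS and at 64.27 and 65.52 TPM in CS1, the largest fall of the regulatory particle (log2 fold change -0.33, SE 0.03, limma adjusted p = 0.00025). Psmd6 stood at 117.10 and 115.70 TPM in PBS and at 125.61 and 130.30 TPM in CS1 (log2 fold change 0.14, limma adjusted p = 0.00866), a call lost without PBS replicate 2 (adjusted p = 0.0515). Psmd3 had a log2 fold change of 0.11 and Psmd13 one of -0.11. Psmd3 was lost after TMM rescaling (adjusted p = 0.0971) and without PBS replicate 1, CS1 replicate 1 or CS1 replicate 2 (adjusted p = 0.165, 0.156 and 0.132). Psmd13 was lost without PBS replicate 2 or CS1 replicate 1 (adjusted p = 0.172 and 0.166), and turned to 0.02 after quantile normalization (adjusted p = 0.653). Psmd14, the metalloprotease that removes ubiquitin chains, stood at 110 ± 0.417 and 106 ± 5.50 TPM and was not called, except as lower without CS1 replicate 1 (adjusted p = 0.0495). Psmd7, Psmd8 and Psmd12 were not called either. The scaling decided the sign for Psmd8, which was called lower after TMM rescaling (-0.07, adjusted p = 0.0348) and higher after quantile normalization (0.08, adjusted p = 0.013), and Psmd7 was called higher after the latter (adjusted p = 0.0135). The mean level per gene of the ATPases over that of these 8 lid genes was 1.09 and 1.07 in PBS and 1.25 and 1.28 in CS1. With Sem1 counted in the lid it was 0.723 and 0.622 in PBS and 0.684 and 0.688 in CS1, so the groups overlapped.

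**Figure D4:**
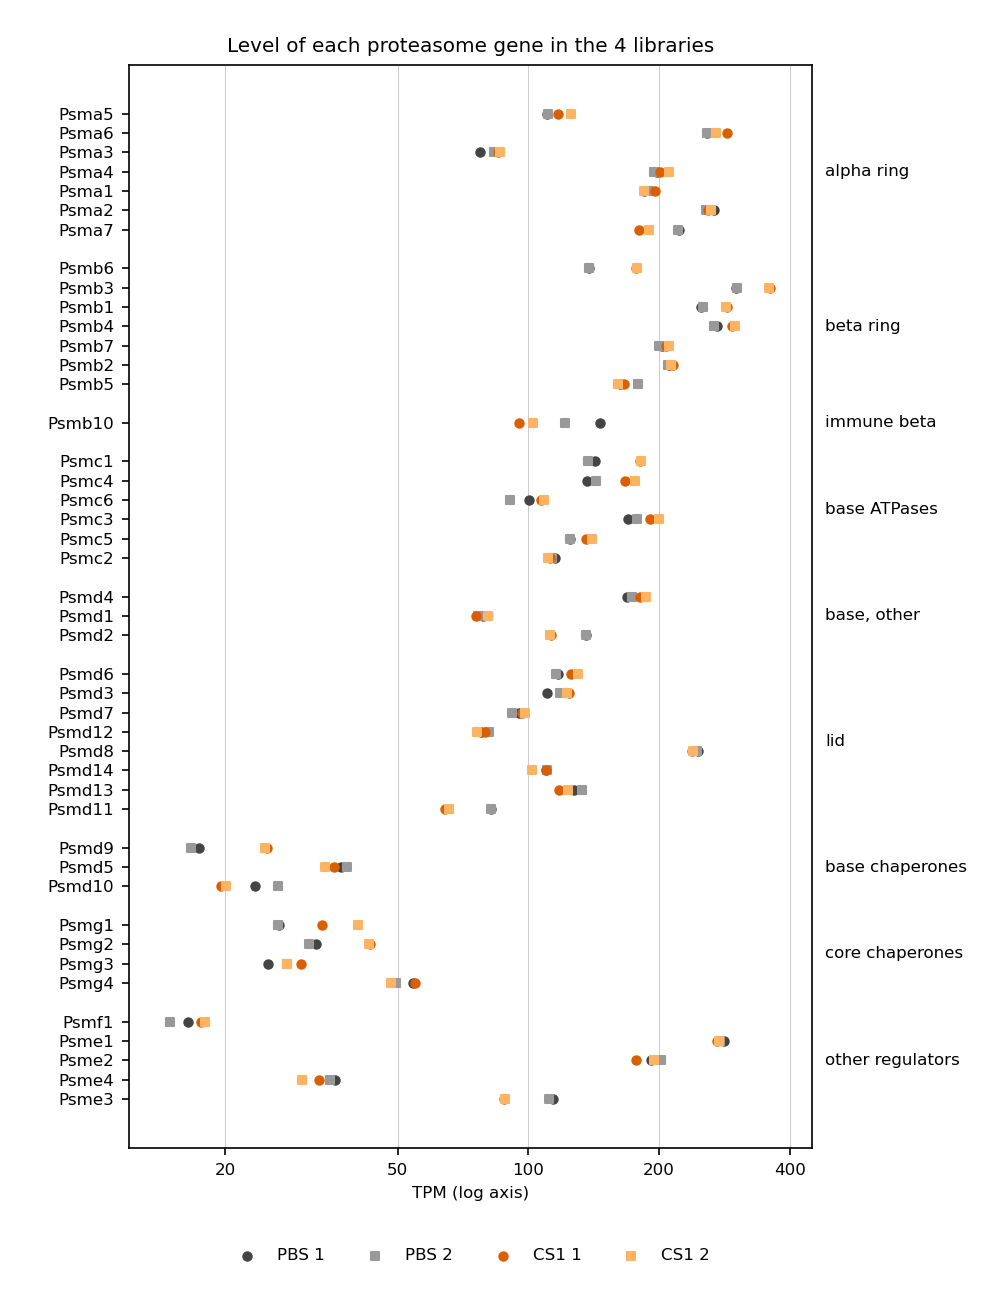
TPM (log axis) of each tested proteasome gene in the 4 libraries, grouped by role, with PBS libraries in grey and CS1 libraries in orange. Of the genes shown, which do not include Sem1, particle subunits lie between 64.3 TPM (Psmd11, CS1 1) and 360 TPM (Psmb3, CS1 1). All assembly chaperones shown lie below 55 TPM.

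Transcripts of subunits that share a particle were not equally abundant. In PBS 1, the 14 core genes ranged over 3.88-fold, from Psma3 to Psmb3, with a coefficient of variation of 31.8% across genes, and the 17 regulatory genes over 3.16-fold, from Psmd12 to Psmd8, with 33.0%. In CS1 1 these values were 4.22-fold and 34.3% for the core and 3.71-fold and 35.6% for the regulatory particle. CS1 2 gave 4.17-fold and 3.66-fold, and PBS 2 gave 3.63-fold and 3.20-fold, so the span was wider in both CS1 libraries than in both PBS libraries for each particle. A span rests on its highest and lowest gene. It was also wider in CS1 within the lid and the other base genes, but the groups overlapped within the alpha ring, the beta ring and the ATPases. Sem1, at 671 to 1044 TPM, is not among the 17 regulatory genes.

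The assembly chaperones held the largest rises of all proteasome genes, at low levels. Psmd9, a chaperone of base assembly, stood at 17.42 and 16.74 TPM in PBS and at 25.04 and 24.70 TPM in CS1 (log2 fold change 0.52, SE 0.05, limma adjusted p = 0.000424). Psmg1 and Psmg2 encode partners that guide alpha ring assembly. Psmg1 was measured at 26.61 and 26.47 TPM in PBS and at 33.38 and 40.53 TPM in CS1 (log2 fold change 0.46, limma adjusted p = 0.00581). Psmg2 went from 31.8 ± 0.827 to 43.1 ± 0.247 TPM (SD, n = 2 each), with a log2 fold change of 0.43. Psmg3 and Psmg4, the other such pair, were not called. Psmg4 stood at 54.21 and 49.51 TPM in PBS and at 54.75 and 48.37 TPM in CS1, with overlapping groups. Psmd10, known as gankyrin, fell from 23.44 and 26.50 TPM in PBS to 19.56 and 20.15 TPM in CS1 (log2 fold change -0.31, limma adjusted p = 0.00988, and 0.0667 without CS1 replicate 1). Psmd5 was not called at 37.7 ± 0.806 and 34.8 ± 1.2 TPM, except as lower after TMM rescaling (adjusted p = 0.0293). Without the filter on low values the calls of Psmg1 and Psmd10 were lost (adjusted p = 0.129 and 0.115).

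Of the 5 alternative regulators 2 fell and 3 were not called, while quantile normalization gave 1 higher and 1 lower. The 40.0% that fell in the main fit stood beside 31.6% of all tested features called lower. Psme3, which encodes the nuclear activator PA28 gamma, stood at 113.92 and 111.71 TPM in PBS and at 87.74 and 88.45 TPM in CS1 (log2 fold change -0.35, SE 0.03, limma adjusted p = 0.000143). Psme4, the PA200 activator, was measured at 35.78 and 34.88 TPM in PBS and at 32.91 and 30.04 TPM in CS1 (-0.16, limma adjusted p = 0.0442), a call lost after quantile normalization (adjusted p = 0.0511) and without PBS replicate 1, PBS replicate 2 or CS1 replicate 2 (adjusted p = 0.168, 0.106 and 0.175). The interferon-inducible activator genes Psme1 and Psme2 did not pass the test. Psme1, PA28 alpha, stood at 281.75 and 277.18 TPM in PBS and at 272.78 and 274.34 TPM in CS1, and turned to a call of higher after quantile normalization (0.08, adjusted p = 0.0173). Psme2, PA28 beta, stood at 191.63 and 202.01 TPM in PBS and at 176.71 and 194.93 TPM in CS1, where the groups overlapped, and was called lower without CS1 replicate 2 (adjusted p = 0.0444). Psme2 is 99.4% identical over 794 bases to Psme2b, listed at 110.45 and 106.16 TPM in PBS and 98.30 and 99.41 TPM in CS1, so the share of each is uncertain. Psme2b was itself called lower (log2 fold change -0.13, limma adjusted p = 0.0123). The sum of Psme2 and Psme2b was 302.1 and 308.2 TPM in PBS and 275.0 and 294.3 TPM in CS1. Both CS1 libraries lay below both PBS libraries, and the sum was not tested. Psmf1, the proteasome-binding protein PI31, stood at 16.45 and 14.94 TPM in PBS and at 17.62 and 17.99 TPM in CS1 (limma adjusted p = 0.0684).

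Promoter windows of RefSeq, from 250 bases before to 50 after a gene's start on GRCm38.p6, were given for 38 of the 46 genes, as 41 windows. Of these, 15 (36.6%) held the ETS core CCGGAAG on either strand, which 8.86% of all 32851 windows and 18.3% of the 11446 windows of tested features held. The 14 genes with it were 6 that rose, 5 that fell and 3 that were not called. The antioxidant response element TGACNNNGC, which NFE2L1 and NFE2L2 bind, was in 6 windows (14.6%), against 12.4% of all windows and 14.6% of those of tested features. These were the windows of Psmb5, Psmb6, Psmc6, Psmd9, Psmd12 and Psme4, of which 3 rose, 1 fell and 2 were not called. The interferon-stimulated response element was in 5 windows (12.2%, against 3.44% of all windows and 3.07% of those of tested features), those of Psmb3, Psmd4, Psmd9, Psme1 and Psmg4. For the other motifs the share of member windows is followed by that of all windows and that of windows of tested features. CCAAT was in 13 windows (31.7%, 37.4% and 38.3%), the gamma-activated site TTCNNNGAA in 2 (4.88%, 8.30% and 6.89%) and the E-box CACGTG in 4 (9.76%, 7.15% and 10.1%). The SP1 motif GGGGCGGGG was in 5 (12.2%, 11.4% and 20.7%), the nuclear respiratory factor motif in 2 (4.88%, 0.971% and 2.15%) and the YY1 motif in 1 (2.44%, 0.633% and 1.58%). The longer element TGACTCAGC, the cyclic AMP response element TGACGTCA and the heat shock element were in 0 of the 41. All motifs were searched on both strands, and TGACTCAGC is a special case of TGACNNNGC. A match describes these letters and is no evidence of binding.

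The windows below belong to the genes with the largest rise and the largest fall in the constitutive core (Psmb6, Psma7), in the regulatory particle (Psmc1, Psmd11) and among the remaining genes (Psmd9, Psmb10). They are shown because genes that moved in opposite directions can be read side by side. Each is 5′ to 3′ on the gene's strand, and capitals mark matches to the motifs named above on either strand.
Psmb6, chr11:70525107-70525406, plus strand: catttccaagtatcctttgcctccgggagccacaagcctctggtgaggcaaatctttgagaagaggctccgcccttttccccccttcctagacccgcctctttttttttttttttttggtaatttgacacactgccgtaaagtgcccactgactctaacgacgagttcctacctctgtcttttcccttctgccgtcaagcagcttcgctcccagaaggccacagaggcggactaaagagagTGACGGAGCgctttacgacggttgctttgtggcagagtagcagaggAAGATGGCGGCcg
Psma7, chr2:180042415-180042714, minus strand: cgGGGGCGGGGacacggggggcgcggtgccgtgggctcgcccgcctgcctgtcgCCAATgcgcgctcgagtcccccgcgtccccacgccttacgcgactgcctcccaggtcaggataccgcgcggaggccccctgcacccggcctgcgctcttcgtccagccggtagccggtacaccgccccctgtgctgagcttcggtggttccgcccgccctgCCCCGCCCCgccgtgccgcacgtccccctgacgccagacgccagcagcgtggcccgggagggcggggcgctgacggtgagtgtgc
Psmc1, chr12:100109952-100110251, plus strand: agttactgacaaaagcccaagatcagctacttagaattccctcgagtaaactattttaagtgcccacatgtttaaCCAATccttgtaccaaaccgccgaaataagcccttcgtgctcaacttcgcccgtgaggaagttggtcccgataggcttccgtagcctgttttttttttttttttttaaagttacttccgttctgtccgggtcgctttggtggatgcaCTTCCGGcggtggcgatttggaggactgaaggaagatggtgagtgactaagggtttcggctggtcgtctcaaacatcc
Psmd11, chr11:80428365-80428664, plus strand: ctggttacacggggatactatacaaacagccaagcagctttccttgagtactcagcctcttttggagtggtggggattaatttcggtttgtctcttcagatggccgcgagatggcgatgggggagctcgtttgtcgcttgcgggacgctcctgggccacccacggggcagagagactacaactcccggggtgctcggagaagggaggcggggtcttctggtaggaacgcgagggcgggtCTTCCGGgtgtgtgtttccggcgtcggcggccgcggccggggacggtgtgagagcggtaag
Psmd9, chr5:123227940-123228239, plus strand: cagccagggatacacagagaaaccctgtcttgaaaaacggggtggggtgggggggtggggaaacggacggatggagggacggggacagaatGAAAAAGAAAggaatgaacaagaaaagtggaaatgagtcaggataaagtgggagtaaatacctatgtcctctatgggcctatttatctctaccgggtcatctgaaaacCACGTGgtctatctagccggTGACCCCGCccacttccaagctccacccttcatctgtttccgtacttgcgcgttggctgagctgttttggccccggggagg
Psmb10, chr8:105938343-105938642, minus strand: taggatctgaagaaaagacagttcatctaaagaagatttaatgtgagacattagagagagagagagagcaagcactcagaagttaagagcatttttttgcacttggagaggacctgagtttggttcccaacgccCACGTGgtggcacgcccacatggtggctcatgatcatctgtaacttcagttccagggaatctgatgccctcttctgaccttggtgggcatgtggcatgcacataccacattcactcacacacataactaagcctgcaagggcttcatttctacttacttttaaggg
Psmb6 carried TGACGGAGC directly before its start (bases -9 to -1) and the YY1 motif after it (38 to 48). Psmc1, which rose, and Psmd11, which fell, both carried the ETS core as CTTCCGG, at -28 to -22 and at -11 to -5. Psma7 carried CCAAT at -196 to -192 and the SP1 motif at -248 to -240 and, on the other strand, at -35 to -27. Psmd9 held TGACCCCGC at -31 to -23, the interferon-stimulated response element at -159 to -150 and the E-box at -51 to -46. Psmb10 held the E-box at -116 to -111.

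The tested proteasome genes were spread over the genome, with 8 on chromosome 11, 6 on chromosome 2 and 5 on chromosome 14. Psme1 (chr14:55578123-55581529, plus strand) and Psme2 (chr14:55587441-55591113, minus strand) lie 5911 bases apart in GENCODE M21 on GRCm38, and neither was called. Psmb6 lies at chr11:70525367-70527858 (plus strand), Psma7 at chr2:180036374-180042433 (minus strand), Psmc1 at chr12:100110154-100123405 (plus strand) and Psmd11 at chr11:80428615-80473248 (plus strand). The GENCODE span of Psmd9 (chr5:123169413-123250131, plus strand) begins well before the RefSeq window shown for it. Exons of 5 of these genes overlapped those of another tested feature: Psmb5 with Mir686 (109 bases), Psmb7 with Nek6 (405), Psmc3 with Slc39a13 (215), Psmd13 with Sirt3 (342) and Psme1 with Emc9 (14). All but the first lie on opposite strands, and without knowing whether counting used strand the values of these pairs are uncertain. For 8 genes, among them Psmb3, Psmb5, Psmc1, Psmd2 and Psmd11, GENCODE holds pseudogene transcripts at least 95% identical over at least 200 bases. These came to 14 in all, none of them rows of the table, so reads of the copies and of the genes may not have been told apart.

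Of 32 genes that work with the proteasome (subunits outside the naming rule, regulators, shuttle factors and ubiquitin genes) 8 rose, 16 fell and 8 were not called, with a median log2 fold change of -0.055. Of all tested features 67.0% were called, 35.3% as higher and 31.6% as lower, and their median was 0.04. Among those that fell were Nfe2l1, a transcription factor of proteasome genes, its relative Nfe2l2, and Ddi2 and Ngly1, whose enzymes activate the NFE2L1 protein. Nfe2l1, which drives proteasome genes when proteasome activity is short, was measured at 46.09 and 46.91 TPM in PBS and at 34.89 and 32.85 TPM in CS1 (log2 fold change -0.45, limma adjusted p = 0.00039). Nfe2l2, the antioxidant regulator NRF2, stood at 115.01 and 119.53 TPM in PBS and at 53.80 and 52.41 TPM in CS1 (-1.13, limma adjusted p = 6.04e-06). Ddi2, the protease that cleaves the NFE2L1 protein, stood at 187.19 and 172.83 TPM in PBS and at 89.95 and 87.87 TPM in CS1 (-1.01, limma adjusted p = 1.63e-05), and Ngly1, which removes its glycans, had a log2 fold change of -0.20.

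**Figure D5:**
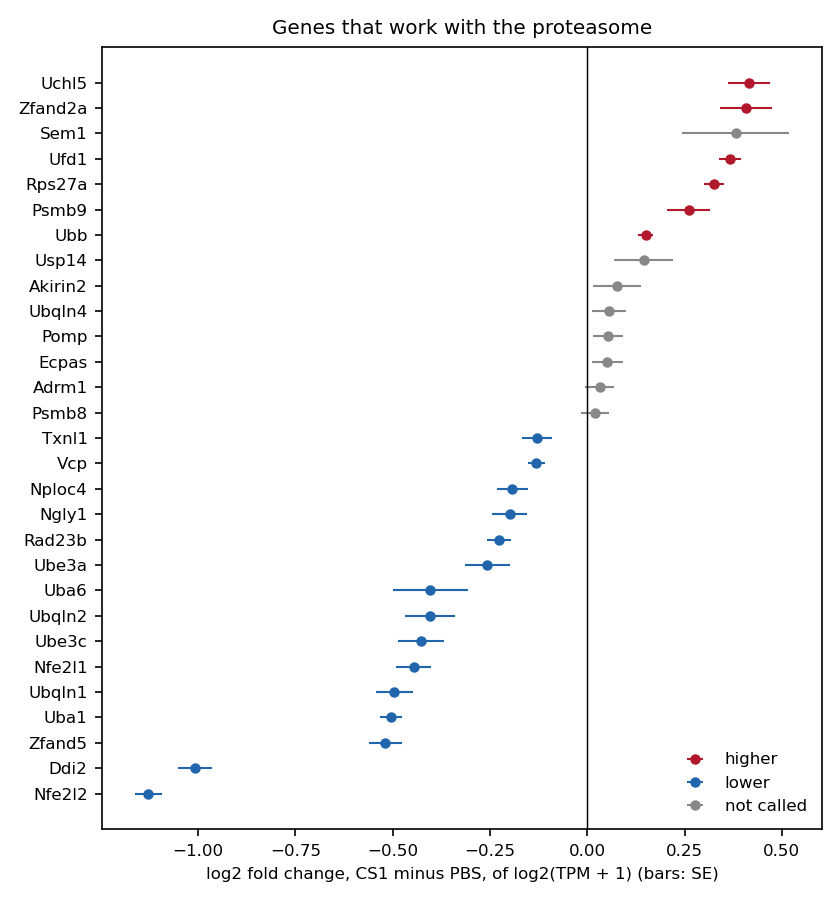
Log2 fold change of CS1 over PBS (x axis, log2(TPM + 1) scale, bars show the SE of the limma fit, 2 libraries per group) for genes that work with the proteasome, leaving out those not reported here. Rps27a (0.33) lies to the right of 0, and Nfe2l2 (-1.13) and Ddi2 (-1.01) on the far left.

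Rps27a and Ubb, which encode ubiquitin, rose, with log2 fold changes of 0.33 and 0.15, although Ubb did not rise after quantile normalization (-0.03). Rps27a stood at 2128 and 2205 TPM in PBS and at 2686 and 2745 TPM in CS1, with both CS1 libraries above both PBS libraries. The ubiquitin-activating enzymes were lower, with Uba1 at 224.16 and 216.28 TPM in PBS and 156.05 and 153.73 TPM in CS1 and with a log2 fold change of -0.40 for Uba6. The Uba6 call was lost without PBS replicate 2, without CS1 replicate 2 and without the filter on low values (adjusted p = 0.0699, 0.0643 and 0.0931). The shuttle factors that carry ubiquitin-tagged proteins to the proteasome include Rad23b, Ubqln1 and Ubqln2, which had log2 fold changes of -0.23, -0.50 and -0.40, while Ubqln4 was not called. Adrm1, a ubiquitin receptor of the base, stood at 112.75 and 111.11 TPM in PBS and 110.72 and 118.28 TPM in CS1 and was not called. Neither was Pomp, the maturation factor of the core, at 268.02 and 280.74 TPM in PBS and 276.34 and 293.66 TPM in CS1. After quantile normalization Adrm1 and Pomp were called higher (adjusted p = 0.0316 and 0.0114). Sem1, a small lid subunit listed under its older symbol Shfm1, stood at 671 and 923 TPM in PBS and 1006 and 1044 TPM in CS1 and was not called either (Shfm1 log2 fold change 0.38, limma adjusted p = 0.0513). PBS 1 lay far below PBS 2, and the fold change was 0.15 without PBS replicate 1 and 0.61 without PBS replicate 2, called higher in both cases (adjusted p = 0.0212 and 0.000791) and after quantile normalization (0.51, adjusted p = 0.0318). Uchl5, a deubiquitinase that docks on Adrm1, rose from 42.5 ± 2.81 to 57.0 ± 1.48 TPM.

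Psmb10, Psme1 and Psme2 belong to 13 interferon-inducible antigen processing genes, of which 3 rose, 7 fell and 3 were not called, with a median log2 fold change of -0.26. Beside this, 35.3% of all tested features rose and 31.6% fell, with a median of 0.04. Irf1 and Nlrc5, which encode factors that induce such genes, had log2 fold changes of -0.65 and -1.31 (limma adjusted p = 0.00014 and 0.000116). B2m, the shared light chain of MHC class I molecules, went from 1447 and 1452 TPM in PBS to 918 and 899 TPM in CS1. Erap1, a peptidase that trims peptides for MHC class I, stood at 44.00 and 43.82 TPM in PBS and 27.10 and 25.90 TPM in CS1. In these genes the groups did not overlap, which held for 84.4% of all tested features. Tap2, a subunit of the peptide transporter, rose by 0.53. Without PBS replicate 1, 1 gene of this list was called higher.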

How the data were processed

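Poly(A)-enriched RNA of 4 libraries (PBS and CS1, 2 each, grouped by title) was analysed from 1 deposited table of 24497 features. STAR, RSEM and mm10 are named, without versions or roles, per the submitters' processing notes; the annotation is not given there. The values were taken as TPM made by the authors and deposited per library. The unit was inferred from column sums of 977973 to 986345, decimals and the mention of RSEM. TPM keeps no read depth, so precision rests on the spread between replicates.

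Values were analysed as log2(TPM + 1). The 11866 features reaching 1 TPM in 2 or more libraries were tested in limma 3.58.1 (R 4.3.3), variance trend on, two-sided, with Benjamini-Hochberg adjustment over all of them, and called below 0.05. With 2 libraries against 2, an exact permutation test cannot go below 0.333. Comparisons between groups of genes are descriptions with no test. By rule, the text names the genes with the largest and smallest log2 fold change of each role group, any with a change of at least 0.5, the catalytic subunits, Psmb10, the activators and Psmf1, and, of both other lists, the 3 smallest p-values and the partners Adrm1, Sem1, Pomp, Psmb8, Psmb9 and Nfe2l1. Some genes of these lists are counted but not reported here by name. Other genes named were chosen after their values were seen. Members and lists were chosen with earlier results of these data known. Alternatives were no filter, a pseudocount of 0.1, TMM factors computed on the TPM values, quantile normalization, variance trend off, each library left out, a replicate block and, added after seeing the data, Sem1 counted in the lid and the regulatory particle.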

Additional observations from a re-analysis of the deposited data

How the results depend on the processing

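Of the 25 called proteasome genes, 12 kept their direction and their call under all 10 alternatives, 8 of them higher (Psmb1, Psmb3, Psmb4, Psmb6, Psmc1, Psmc5, Psmd9 and Psmg2) and 4 lower (Psma7, Psmd2, Psmd11 and Psme3). Each of the other called genes lost its call without the filter on low values. Psma5, Psma6, Psmc6, Psmd3, Psmd4, Psmd13 and Psme4 also lost it with the variance trend off. The share of all called features that kept their call under every alternative is not given. The 12 of 25 can therefore not be set against it. Without the filter on low values, 8 members were called higher and 4 lower, 2 genes of the regulatory particle were called higher, and 1 gene of the interferon list. That setting adds features to the adjustment and to the variance trend, and it called fewer of all features in each direction than the main fit. In proportion, the members lost more calls in each direction than all features did. The added features may be among the features called there, so the 2 losses are not strictly comparable. With the variance trend off, 5 genes of the regulatory particle were called higher. TMM rescaling gave 5 higher genes in the regulatory particle and median log2 fold changes of 0.0508 for the core and 0.0282 for the regulatory particle. Quantile normalization gave 26 higher members, 12 higher core genes and 5 higher genes of the interferon list, with medians of 0.1802 and 0.1372 that differed by 0.043. The difference of medians was 0.0442 with all Psmc and Psmd genes as the regulatory particle and 0.0122 with all Psma and Psmb genes as the core. It was 0.0015 with Sem1, but not Adrm1, counted in the regulatory particle, a choice made after seeing the data. Counting Sem1 turned the log2 change of the mean core level over that of the regulatory particle from 0.0245 to -0.0652. Neither scaling moved the median over all tested features by more than 0.1 on the log2 scale. The cause of these shifts was not tested.

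The log2 fold changes that changed sign were small. Under TMM rescaling they were -0.0056 for Psma1, -0.003 for Psmb2, -0.0107 for Psmb8 and -0.0147 for Psmd1. Under quantile normalization they were 0.0984 for Psma2, 0.0169 for Psmb5, 0.0732 for Psmc2, 0.0849 for Psmd8, 0.0528 for Psmd12, 0.0207 for Psmd13, 0.0406 for Psmd14, 0.0838 for Psme1, 0.0216 for Psme2, 0.027 for Psmg4 and -0.0286 for Ubb. Of these genes, Psmd13 and Ubb were called in the main result. Leaving out each library in turn gave 12 to 15 higher and 6 to 8 lower members, 1 to 2 lower core genes, 4 to 6 higher genes of the regulatory particle and 1 to 3 higher genes of the interferon list. The core median then ran from 0.0704 to 0.0848, that of the regulatory particle from 0.0333 to 0.0675 and their difference from 0.0102 to 0.0512. Signs changed within the ranges -0.0181 to 0.0667 for Psma1, -0.0338 to 0.0245 for Psma2, -0.133 to 0.0076 for Psmb5, -0.0269 to 0.0654 for Psmb8, -0.0301 to 0.06 for Psmd1, -0.0631 to 0.0007 for Psmd12, -0.0971 to 0.0782 for Psmg4 and -0.0155 to 0.079 for Adrm1. In these fits the lone library of a group was assumed to vary like the other group.

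Replicate numbers were not shown to pair the libraries, since deviations of same-numbered libraries correlated at 0.0219 over 11866 features. With the replicate block, 17 members were called higher and 8 lower. Of the genes outside the naming rule, Sem1 was then called higher (adjusted p = 0.0181). Read depth is unknown, so a small change of a low gene cannot be weighed against counting error.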
